A study of Homo sapiens with 12 samples.

Results

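PEG10, its divergent neighbour SGCE and 6 other imprinted genes (MEST, GRB10, IGF2R, PLAGL1, PEG3 and GNAS) were examined in a pair of lung adenocarcinoma cell lines treated with the MDM2 inhibitor RG7112. These 8 genes were matched by Ensembl identifier among the 20595 genes of the table of RNA-seq counts. The set was selected on the lower PEG10 expression of A549 with RG7112, so PEG10 in A549, and every difference between the cell lines that contains it, is described below without a test. A549 (p53 WT) and H1792 (p53 mutant) are established human lines with MDM2 amplification. Each was cultured for 48 h with DMSO, the solvent control, or with RG7112 at 1 µM, a compound of the nutlin family that keeps MDM2 from binding p53. There were 3 replicates in each of the 4 groups, and all 12 samples were used. Nothing states that replicates came from separate cultures, so p-values measure the spread between these samples, which may be technical.

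Imprinted genes are expressed mainly or only from the copy inherited from one parent, and DNA methylation laid down in the germ line marks which copy is silent. PEG10 and SGCE form an imprinted pair on 7q21.3 that is read outward from a shared promoter region, and both are expressed from the paternal copy. PEG10 derives from a retrotransposon, retains gag- and pol-like reading frames and is needed for placenta formation, whereas SGCE encodes ε-sarcoglycan, a membrane glycoprotein. The counts do not separate the parental copies, so none of the values below measures imprinting itself.

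In GRCh38, PEG10 (ENSG00000242265) spans chromosome 7 from 94656325 to 94669695 on the plus strand, and SGCE (ENSG00000127990) spans 94524204 to 94656572 on the minus strand. Their 5′ ends overlap by 248 bp. Total counts ranged from 2011916 to 6218825 per sample. Of the targets of p53, CDKN1A, the cell cycle inhibitor p21, and MDM2 itself were higher with RG7112 in A549 by 3.58 and 2.99 on the log2 scale, and in H1792 their log2 fold changes were 0.15 and -0.05. In A549 CDKN1A was at 207, 194 and 962 CPM (counts scaled by library size) with RG7112, beside a mean of 38.0 CPM with DMSO. The size of its change thus rests in part on replicate 3. Summed epithelial markers, keratins among them, were at 14800 to 19370 CPM with DMSO and 17480 to 24570 CPM with RG7112 in A549. In H1792 they were at 1766 to 2023 CPM with DMSO and 1085 to 1338 CPM with RG7112. KRT19 was a differentially expressed gene (DEG, an adjusted p below 0.05 with a log2 fold change above 1 in size) in A549 (1.27, higher). In H1792 4 of 5 tested epithelial markers, all keratins, passed the test as lower, KRT18 as a DEG (-1.04). Of all tested genes 34.1% passed there in either direction. EPCAM, the other tested marker, was higher without passing (1.22, edgeR, adjusted p = 0.102). The 10 markers of other cell types, of which 3 to 5 had 0 counts in a group, summed to 12.5 to 37.7 CPM with DMSO and 47.8 to 107 CPM with RG7112 in A549, and to 10.9 to 20.8 and 11.6 to 19.8 CPM in H1792. Most of the sum in A549 was CD68, at 22.3 ± 12.5 CPM with DMSO and 67.5 ± 33.7 CPM with RG7112 (log2 fold change 1.61, adjusted p = 0.102). PDGFRB, a marker of stromal cells, was a DEG in H1792, with 0, 4 and 2 counts and then 16, 20 and 27 counts (adjusted p = 0.0220). Only its treated samples brought it into the test. The part of all these markers in the results was not tested, and in bulk RNA fewer cells of a type cannot be told apart from less RNA per cell.

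PEG10 was low in A549 after RG7112 and high in H1792 after RG7112, and SGCE passed the test in neither cell line. In A549 the normalized PEG10 expression was 187, 224 and 93.4 CPM in replicates 1, 2 and 3 with DMSO and 38.5, 19.04 and 20.5 CPM with RG7112. Every treated sample was below every control, and the means were 168 ± 67.2 and 26.0 ± 10.8 CPM (SD, n = 3), which differ by -2.66 on the log2 scale. In H1792 PEG10 was at 49.3, 38.0 and 27.2 CPM with DMSO and at 82.5, 125 and 122 CPM with RG7112. Here all treated samples lay above all controls. The mean rose from 38.2 ± 11.1 to 110 ± 23.7 CPM, a log2 fold change of 1.52 ± 0.254 (SE), with an adjusted p of 0.00707 in edgeR's quasi-likelihood test. PEG10 was therefore called as a DEG in H1792. In that cell line 14.6% of 9914 tested genes were DEGs, with 10.3% upregulated and 4.34% downregulated. Between the responses PEG10 differed by -4.10 on the log2 scale, A549 minus H1792. With DMSO it was 2.04 higher in A549.

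SGCE in A549 was at 106, 84.4 and 91.1 CPM with DMSO and at 84.9, 68.8 and 68.2 CPM with RG7112. The groups overlapped, since the highest treated sample was above the lowest control. The log2 fold change was -0.34 ± 0.170 (SE), with a 95% interval of -0.74 to 0.06 and an adjusted p of 0.284 (edgeR). In H1792 SGCE was at 94.8, 92.3 and 62.9 CPM with DMSO and at 73.2, 84.8 and 110 CPM with RG7112, again with overlap. Its log2 fold change there was 0.09 ± 0.210 (SE), with a 95% interval of -0.41 to 0.60 and an adjusted p of 0.764. In H1792 the interval of SGCE does not include the log2 fold change that PEG10 had there, which has an error of its own. No such comparison is made in A549, where the set was selected on PEG10. The responses of SGCE differed by -0.35 (adjusted p = 0.400, interval -0.97 to 0.27), and its level with DMSO differed between the cell lines by 0.07 (adjusted p = 0.810). These intervals do not show that SGCE stayed constant.

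The ratio of PEG10 to SGCE counts within a sample does not depend on the scaling between samples. In A549 it was 1.77, 2.65 and 1.03 with DMSO and 0.453, 0.277 and 0.301 with RG7112. In H1792 it was 0.520, 0.412 and 0.432 with DMSO and 1.13, 1.48 and 1.11 with RG7112. PEG10 thus had more counts than SGCE in all untreated A549 and all treated H1792 samples, and fewer in the other 6 samples. The mean log2 ratio in H1792 went from -1.14 ± 0.177 to 0.29 ± 0.231 (SD, n = 3), a difference of 1.44 (two-sided exact permutation test, p = 0.1, the smallest that 3 against 3 can give).

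**Figure D1:**
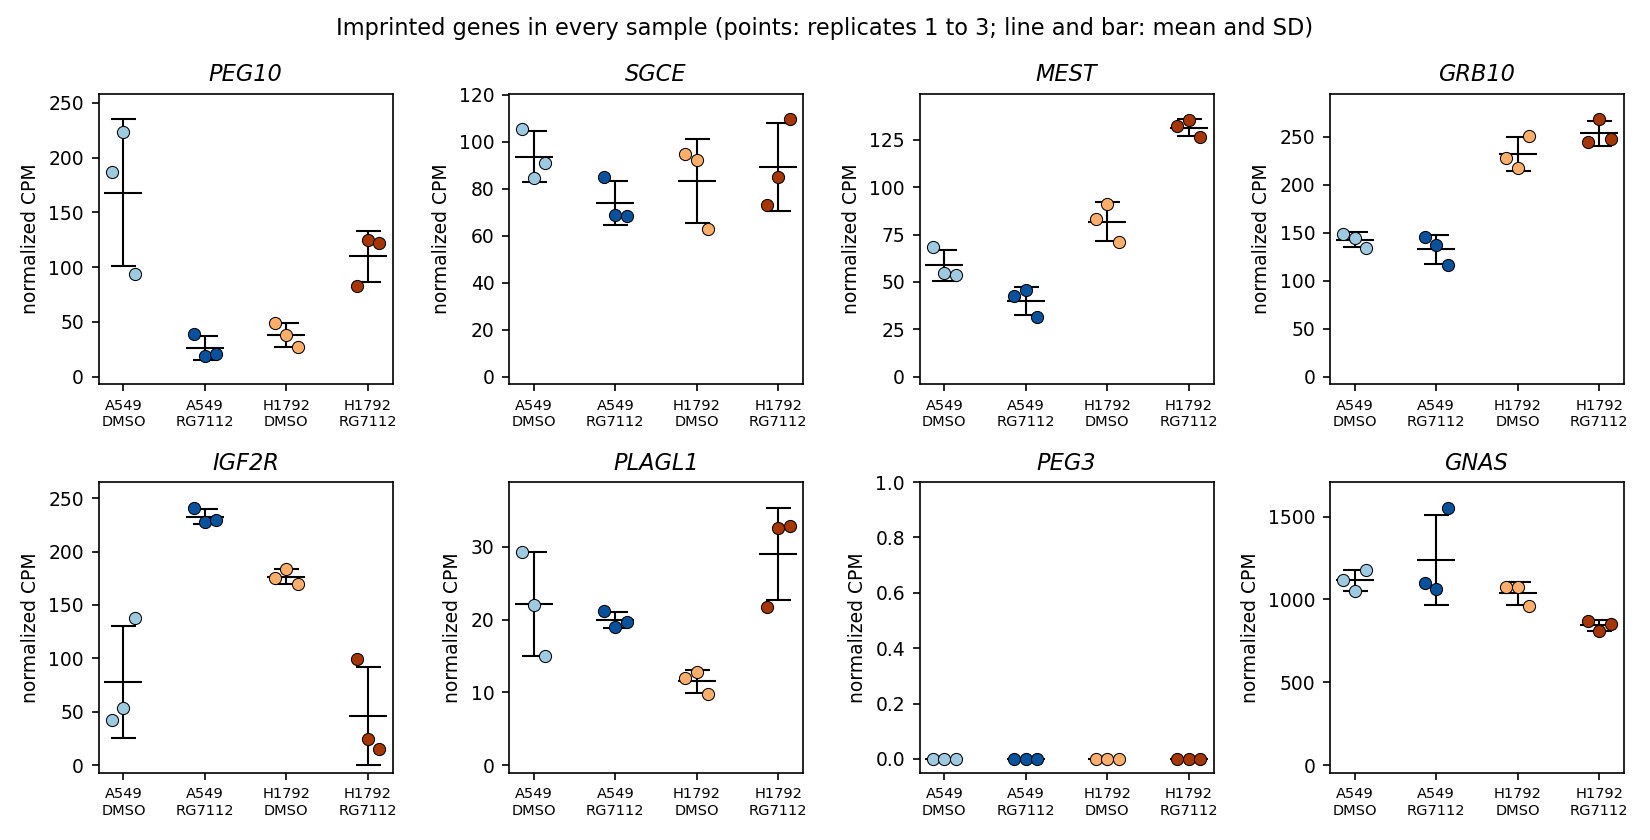
CPM of the 8 imprinted genes in A549 and H1792 with DMSO or RG7112 (linear axes from 0), normalized within each cell line; points are replicates 1 to 3, and the line and bar are mean and SD. PEG10 is lower in treated A549 (26.0 CPM) and higher in treated H1792 (110 CPM), SGCE overlaps between treatments in both, IGF2R moves opposite to PEG10, and PEG3 is at 0 throughout.

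Normalized for length, the order of the 8 genes changed with the group. Divided by the median length of their protein-coding transcripts, the values in A549 with DMSO were 889 CPM per kb for GNAS, 56.4 for SGCE, 53.01 for GRB10, 25.7 for PEG10, 25.4 for MEST, 8.37 for IGF2R and 8.20 for PLAGL1. SGCE and GRB10, PEG10 and MEST, and IGF2R and PLAGL1 did not differ beyond their spread. With RG7112 PEG10 had the lowest level of the 7 expressed genes in A549 by this length, at 3.98 ± 1.66 CPM per kb (SD). Over the union of exons PLAGL1 was lower than PEG10 there (2.238 against 3.805 CPM per kb), as it was without division by length (19.55 against 25.45 CPM). In H1792 PEG10 was at 6.24 ± 1.79 with DMSO, above PLAGL1 at 4.57 ± 0.729, and at 17.0 ± 3.60 with RG7112, between SGCE at 54.5 ± 10.97 and PLAGL1 at 10.9 ± 2.33 CPM per kb. The annotated transcripts of SGCE vary greatly, and over the union of its exons it ranked below PEG10 in all groups.

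IGF2R moved the other way from PEG10 in both cell lines. It encodes the cation-independent mannose 6-phosphate receptor, which carries enzymes to lysosomes and clears IGF2 from the cell surface. In mice it is expressed from the maternal copy, while in most human tissues both copies are expressed. In A549 IGF2R was at 42.1, 53.1 and 138 CPM with DMSO and at 241, 228 and 230 CPM with RG7112. Replicate 3 with DMSO stood between the other controls and the treated samples, which lay close together. The log2 fold change was 1.58 ± 0.426 (SE) and missed the threshold (edgeR, adjusted p = 0.0674). Without that control it was 2.29 (adjusted p = 0.00334), and without any other single A549 sample it was 1.28 to 1.60 (adjusted p of 0.129 to 0.205).

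In H1792 IGF2R was at 176, 184 and 170 CPM with DMSO and at 99.0, 24.0 and 15.4 CPM with RG7112. All treated samples were below all controls, and replicate 1 with RG7112 stood nearest to them. Its log2 fold change was -1.95 ± 0.639 (SE) and also missed the threshold (edgeR, adjusted p = 0.0554). Without that treated sample it was -3.15 (adjusted p = 0.00210), and without any other single H1792 sample it was -1.99 to -1.55 (adjusted p of 0.103 to 0.147). The same libraries had the least extreme PEG10 values of their groups, 93.4 CPM in A549 and 82.5 CPM in H1792. The difference between the responses was itself tested, at 3.60 ± 0.856 (SE) on the log2 scale, A549 minus H1792, with an adjusted p of 0.0148 in edgeR's interaction test. Over all 11666 genes 21.8% passed that test. Within the cell lines IGF2R passed with DESeq2 (adjusted p = 0.00221 in A549 and 0.0455 in H1792) and with limma-trend (0.0405 and 0.0263).

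**Figure D2:**
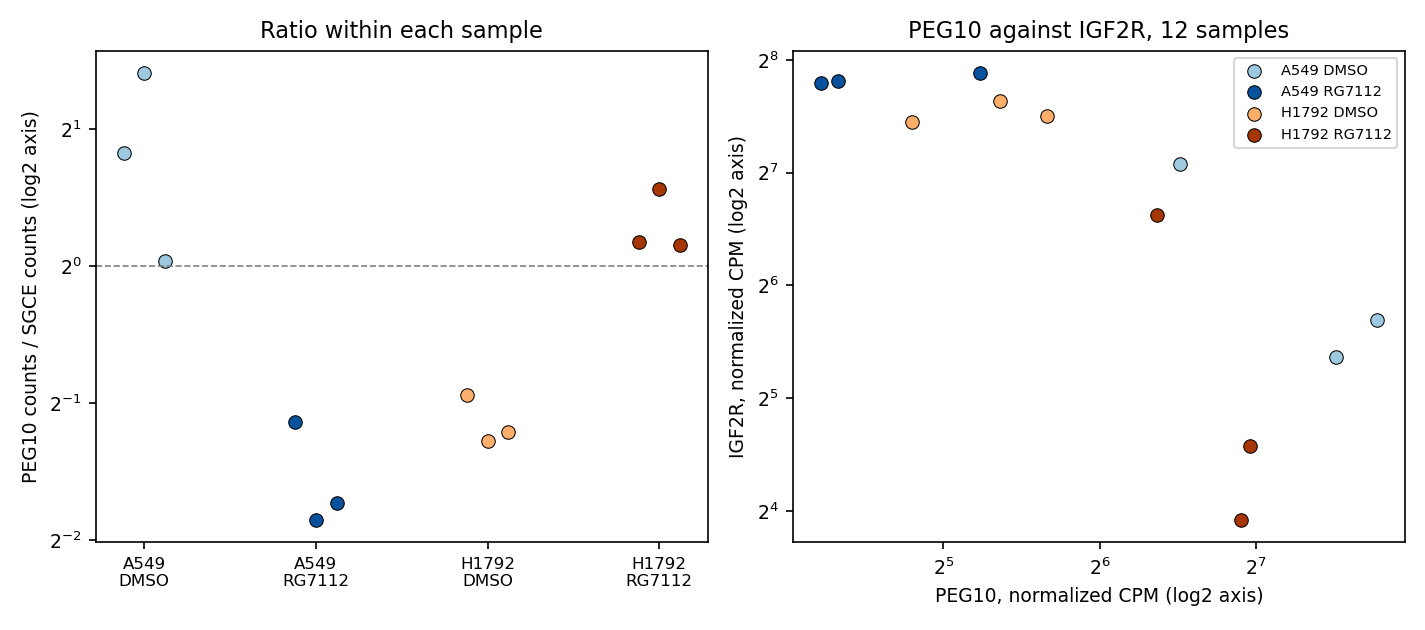
Left, ratio of PEG10 to SGCE counts in each of the 12 samples by group (log2 axis, dashed line at equal counts). Right, PEG10 against IGF2R in CPM normalized over all 12 samples (log2 axes); the samples with the most PEG10, A549 with DMSO and H1792 with RG7112, have the least IGF2R.

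MEST, PLAGL1 and GNAS passed the test in H1792 together with PEG10, so that 4 of 7 tested members had an adjusted p under 0.05, beside 34.1% of all tested genes. MEST encodes a hydrolase-like protein of the endoplasmic reticulum linked to adipocyte growth and is paternally expressed. In H1792 it was at 83.2, 91.2 and 70.9 CPM with DMSO and at 133, 135 and 127 CPM with RG7112. It rose by 0.68 ± 0.110 (SE) on the log2 scale (edgeR, adjusted p = 0.00634), which is under the fold change of a DEG. In A549 it was at 68.3, 54.5 and 53.7 CPM with DMSO and at 42.4, 45.9 and 31.3 CPM with RG7112. These groups did not overlap, but the log2 fold change of -0.56 ± 0.215 (SE) had an adjusted p of 0.165. The responses of MEST differed by -1.17 ± 0.241 (adjusted p = 0.00814), in the same direction as those of PEG10.

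PLAGL1 encodes a zinc finger transcription factor that halts the cell cycle and is paternally expressed from its imprinted promoter. In H1792 it was at 11.98, 12.8 and 9.77 CPM with DMSO and at 21.7, 32.6 and 32.8 CPM with RG7112. It was the other DEG among the members there, higher by 1.32 ± 0.235 (SE) on the log2 scale (edgeR, adjusted p = 0.00803). In A549 it was at 29.4, 22.0 and 15.0 CPM with DMSO and at 21.2, 19.04 and 19.7 CPM with RG7112, all treated samples within the range of the controls. The log2 fold change in A549 was -0.14 ± 0.287 (adjusted p = 0.820). Its responses differed by -1.39 ± 0.378 (adjusted p = 0.0252). Leaving out replicate 1 of A549 with DMSO, replicate 3 of H1792 with DMSO or replicate 2 or 3 of H1792 with RG7112 moved this adjusted p to between 0.0575 and 0.0601.

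GNAS encodes the stimulatory G protein α subunit together with several imprinted transcripts from other promoters, which the gene counts add together. In H1792 it was at 1076, 1074 and 958 CPM with DMSO and at 871, 807 and 854 CPM with RG7112, with no overlap. It fell by 0.30 on the log2 scale (SE 0.0712, edgeR, adjusted p = 0.0208). The adjusted p was between 0.0522 and 0.0741 without replicate 1 or 2 with DMSO or replicate 2 or 3 with RG7112. In A549 it was at 1119, 1049 and 1178 CPM with DMSO and at 1099, 1060 and 1553 CPM with RG7112, a log2 fold change of 0.15 ± 0.172 (adjusted p = 0.654). The difference between its responses was 0.52 ± 0.195 (adjusted p = 0.0803).

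GRB10, an adaptor that restrains insulin receptor signaling and is imprinted in a tissue- and isoform-dependent way, passed the test in neither cell line. It was at 149, 145 and 134 CPM with DMSO and at 145, 137 and 116 CPM with RG7112 in A549, a log2 fold change of -0.10 ± 0.141 (edgeR, adjusted p = 0.720). In H1792 it was at 228, 217 and 251 CPM with DMSO and at 244, 268 and 248 CPM with RG7112, a log2 fold change of 0.13 ± 0.0817 (adjusted p = 0.258). Its groups overlapped in both cell lines. The responses differed by -0.16 (adjusted p = 0.476, interval -0.48 to 0.17). PEG3, a zinc finger gene, had 0 counts in all 12 samples, where 3 counts correspond to 0.482 to 1.49 CPM.

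**Figure D3:**
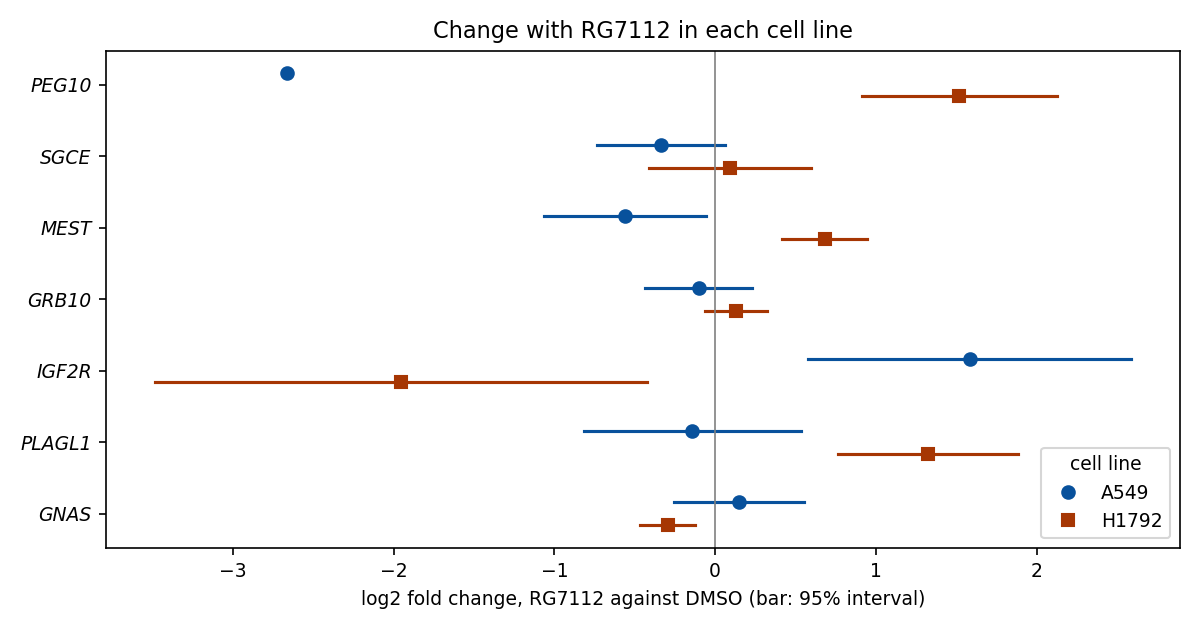
Log2 fold change with RG7112 of the 7 expressed members in A549 (circles) and H1792 (squares), with 95% intervals; none is drawn for PEG10 in A549, by which the set was selected. In this fit all 7 have opposite signs in the 2 cell lines, but the share of all genes that do was not computed. With a GC correction SGCE is below 0 in both (-0.12 in A549 and -0.41 in H1792). The intervals of SGCE and GRB10 include 0 in both cell lines.

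Leaving out PEG10, the treated and control samples did not overlap in A549 for 2 of 6 expressed members, MEST and IGF2R, beside 32.4% of all tested genes. In H1792 they did not overlap for PEG10, MEST, IGF2R, PLAGL1 and GNAS, beside 52.9%. None of the 6 other expressed members passed edgeR's test in A549 (2 had an unadjusted p under 0.05, and IGF2R alone passed with DESeq2), where 8.38% of 10739 genes had an adjusted p under 0.05 and 6.19% were DEGs (3.18% upregulated and 3.01% downregulated). For each of the 6 other expressed members the exact permutation test within a cell line gave p = 0.1, its smallest value, where samples did not overlap, and 0.2 to 0.8 where they did. Fold changes in this series moved with GC content, with a Spearman rho over genes of 0.26 in A549 and -0.47 in H1792. Genes within 1 percentage point of PEG10's 46.2% GC had a median log2 fold change of -0.10 in A549 and 0.20 in H1792. For MEST such genes had medians of -0.12 and 0.30, for IGF2R 0.00 and 0.01, for PLAGL1 -0.03 and 0.19, and for SGCE -0.17 and 0.53. With a GC correction, PEG10 (1.25, adjusted p = 0.0121) and PLAGL1 passed the test in H1792, MEST (0.37, adjusted p = 0.0536) and GNAS (-0.09, adjusted p = 0.407) did not, and SGCE turned to -0.41 (adjusted p = 0.142). Scaling by library size only moved the median of all genes in H1792 by 0.26 on the log2 scale, with GNAS then at -0.04 (adjusted p = 0.713) and GRB10 at 0.39 (adjusted p = 0.0147). Fold changes also moved with coding transcript length in H1792 (Spearman rho 0.19), and less in A549 (0.04). In H1792 genes of at least 6000 bp had a median log2 fold change of 0.37, and 25.2% were DEGs, beside 0.01 and 14.6% of all genes. PEG10, at 6392 bp, is such a gene, as is IGF2R, at 9084 bp, which fell. No correction for length was made.

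With DMSO, the cell lines differed in GRB10, MEST and PLAGL1. Normalized over all 12 samples, GRB10 was at 139 ± 7.64 CPM in A549 and 242 ± 13.5 CPM in H1792, a log2 difference of -0.80 ± 0.105 (SE, edgeR, adjusted p = 0.000103). MEST was lower in A549 by 0.58 on the log2 scale (adjusted p = 0.0158), and PLAGL1 was higher by 0.83 (adjusted p = 0.0261). IGF2R (-1.28, adjusted p = 0.0994) and GNAS (0.01, adjusted p = 0.960) did not pass the test. Over all genes 47.5% did. Without replicate 3 of A549 with DMSO, IGF2R did (-1.99, adjusted p = 0.0246), and without replicate 1 PLAGL1 did not (0.60, adjusted p = 0.104). PLAGL1 also did not pass without replicate 2 of A549 or replicate 1 or 3 of H1792 with DMSO (adjusted p = 0.0561, 0.0620 and 0.0898). MEST did not pass without replicate 2 of either control group (adjusted p up to 0.0678), with library size only (-0.31, adjusted p = 0.218) or with at least 10 counts in every sample (-0.41, adjusted p = 0.0575).

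The table of RefSeq promoters used here (GRCh38.p14) matched 5 of the 8 members, MEST, GRB10, IGF2R, PLAGL1 and GNAS, with 22 starts in all. Methylation at imprinted genes lies on CpG dinucleotides, and for the members whose responses differed by the test the 250 bases upstream of a start are shown 5′ to 3′ with each CG in capitals. The methylated regions of the imprints were not located here, and the windows were not chosen as such regions. For PLAGL1 the start at chr6:144008260-144008509 held more CG (32) and an E2F motif, but it overlaps an exon of the gene. Of several starts, the window with the most CG that overlaps no annotated exon of the gene is given: chr6:159968832-159969081 (plus strand) for IGF2R, chr7:130491808-130492057 (plus) for MEST and chr6:144064600-144064849 (minus) for PLAGL1.
IGF2R: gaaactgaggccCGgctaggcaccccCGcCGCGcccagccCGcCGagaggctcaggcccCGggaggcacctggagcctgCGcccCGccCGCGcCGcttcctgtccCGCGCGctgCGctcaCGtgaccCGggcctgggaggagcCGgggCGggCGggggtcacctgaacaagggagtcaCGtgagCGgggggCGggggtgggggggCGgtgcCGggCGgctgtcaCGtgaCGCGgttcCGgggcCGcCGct
MEST: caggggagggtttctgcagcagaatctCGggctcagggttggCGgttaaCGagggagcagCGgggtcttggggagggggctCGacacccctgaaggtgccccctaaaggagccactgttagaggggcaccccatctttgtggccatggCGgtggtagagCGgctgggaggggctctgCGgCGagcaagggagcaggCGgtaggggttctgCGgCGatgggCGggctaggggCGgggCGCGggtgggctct
PLAGL1: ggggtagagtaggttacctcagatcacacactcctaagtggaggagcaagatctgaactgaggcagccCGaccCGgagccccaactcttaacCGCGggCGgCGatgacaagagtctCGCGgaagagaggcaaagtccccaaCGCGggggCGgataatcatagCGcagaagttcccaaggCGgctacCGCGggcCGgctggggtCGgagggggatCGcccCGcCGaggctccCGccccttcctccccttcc
The window of IGF2R held 33 CG, that of MEST 16 and that of PLAGL1 21, against a median of 11 over 35114 promoters of the same length. IGF2R had more CG than 91.9% of those promoters, MEST more than 59% and PLAGL1 more than 69.8%. The GC box GGGCGG, searched on both strands, occurred 6, 2 and 3 times in these windows and in 42.6% of all promoters. The E2F motifs TTTCCCGC, TTTCGCGC, TTTGGCGC and TTTGCCGC were in none of the 3 windows and in 2.79% of all promoters. The CHR motifs (TTTGAA or TTTAAA) were not in these windows either, nor were the CCAAT box, the YY1 motif GCCATNTT and the TATA box (TATAAA). These occurred in 21.9%, 32%, 3.86% and 10.7% of all promoters. Windows of other starts did hold some of them: over the 22 starts of the members, 2 had an E2F motif, 1 of them a start of PLAGL1, 5 a CHR motif, 3 a CCAAT box, 1 a YY1 motif and 3 a TATA box.

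Of 16 further genes of 7q21.3 in the table, 7 were tested in each cell line and none was a DEG in either. Of all tested genes 6.19% were DEGs in A549 and 14.6% in H1792, and 7 genes are too few to show a departure from those shares. In A549 their log2 fold changes were 0.02 for TFPI2, a protease inhibitor whose start lies at -765.3 kb from that of PEG10, -0.20 for BET1, a protein of vesicle transport, 0.07 for PPP1R9A, an actin-binding neurabin, -0.81 for PON3, -0.0028 for PON2, -0.20 for PDK4, a kinase that inhibits pyruvate dehydrogenase, and -1.05 for SLC25A13, a mitochondrial carrier. Their median was -0.20, beside -0.01 for all tested genes, and their adjusted p was at least 0.363 (edgeR). In H1792 1 of the 7, beside 34.1% of all tested genes, passed the test below the DEG threshold, PON2, an antioxidant lactonase 779 kb away. It went from 42.1, 43.0 and 38.7 CPM with DMSO to 64.6, 60.5 and 68.3 CPM with RG7112, a log2 fold change of 0.64 (adjusted p = 0.00835). The other 6 were TFPI2 (0.35), BET1 (0.11), COL1A2, a collagen I chain (-0.15), PPP1R9A (0.47), DYNC1I1 (0.21) and SLC25A13 (0.44), with adjusted p of 0.0558 or more. The median of the 7 was 0.35, beside 0.01 for all genes. CASD1, whose span overlaps that of SGCE, had at most 17 counts in any sample and was not tested.

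**Figure D4:**
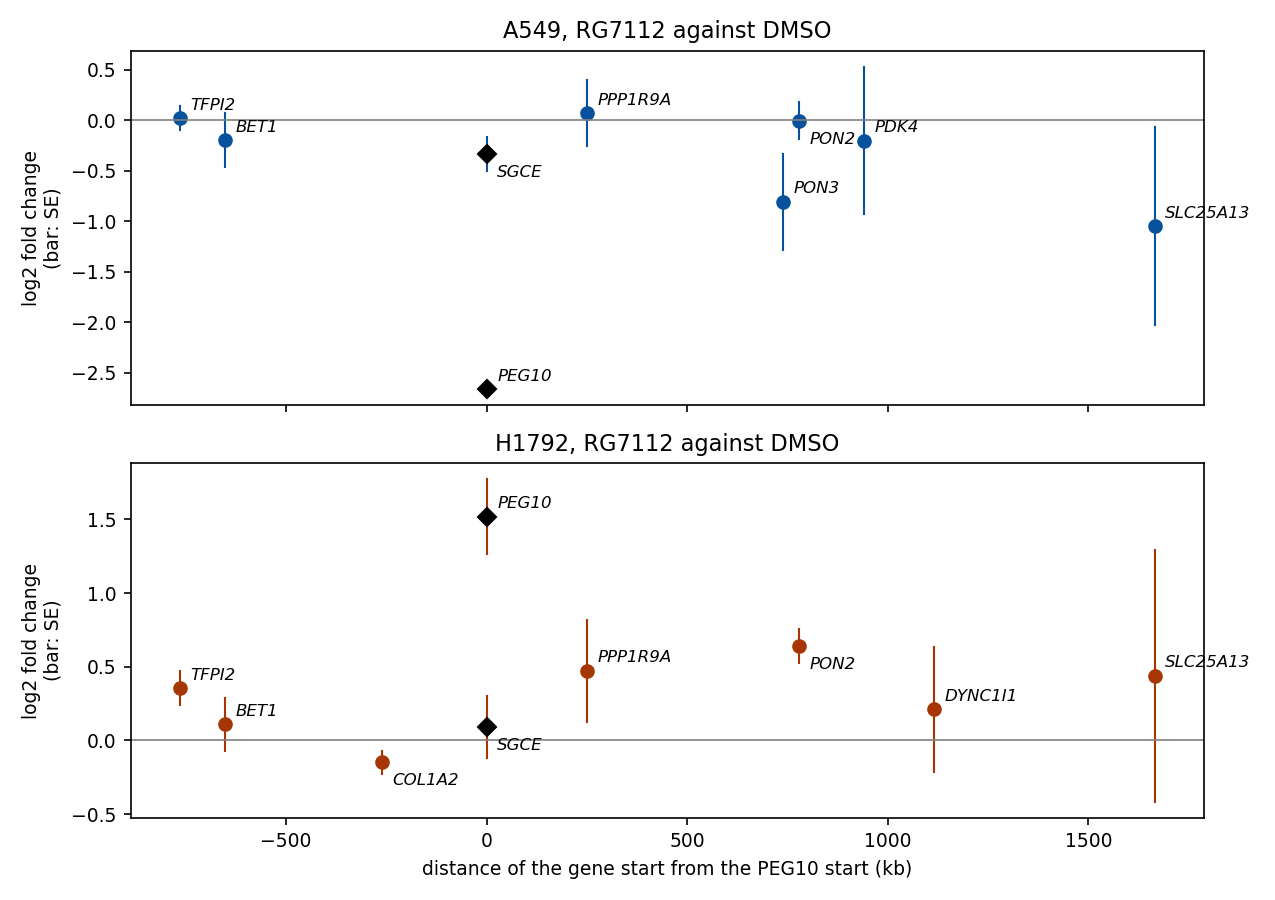
Log2 fold change with RG7112 (bars: SE) of PEG10, SGCE (diamonds) and the tested neighbours on 7q21.3 against the distance in kb from the PEG10 start, in A549 (top) and H1792 (bottom). PEG10 lies at -2.66 and 1.52, farther from 0 than the neighbours drawn, although the SE bar of SLC25A13 reaches that of PEG10 in H1792; no SE is drawn for PEG10 in A549.

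Other imprinted genes were listed by symbol, and their imprinting in many cases depends on tissue. In A549 none of the 18 tested was a DEG, beside 6.19% of all genes, and the median log2 fold change was 0.05, beside -0.01 for all genes. In H1792 4 of 16 tested were upregulated DEGs, beside 10.3% of all genes, none was a downregulated DEG, and the median was 0.42, beside 0.01. NAA60 (-0.57, adjusted p = 0.00490) and SNRPN (-0.50, adjusted p = 0.0139) passed the test in the other direction, below the fold change of a DEG. UBE3A, a ubiquitin ligase imprinted in neurons, went from 7.53, 5.34 and 6.37 CPM with DMSO to 20.4, 38.8 and 30.0 CPM with RG7112, a log2 fold change of 2.22 (edgeR, adjusted p = 0.00436). CPA4, a carboxypeptidase gene near MEST, went from 5, 5 and 0 counts to 14, 55 and 26 counts (adjusted p = 0.0348). RB1, the retinoblastoma tumor suppressor, had 1, 2 and 1 counts with DMSO and 14, 20 and 30 with RG7112 (adjusted p = 0.00598). MKRN3, a ring finger gene of the Prader-Willi region, had 1, 3 and 0 counts and then 11, 15 and 22 (adjusted p = 0.0184). CPA4, RB1 and MKRN3 were near the limit of detection in the controls, and no fold is given for them. They reached the filter's minimum of 10 counts only through the treated samples. Their being tested thus already implied a rise, so the 4 of 16 and the median do not show a rise of the list. In the interaction test 5 of 19 genes passed, beside 21.8% of all genes, with UBE3A and RB1 in the direction of PEG10 and NAA60, SNRPN and SLC22A18 in that of IGF2R.

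Among genes derived from the gag of retrotransposons, the family to which PEG10 belongs, RTL5 and PNMA8A passed the test in A549 and LDOC1 in H1792. In A549 2 of 6 tested were upregulated DEGs, beside 3.18% of all genes. LDOC1 (-0.81) and MOAP1 (-1.20) were lower there, as PEG10 was, and RTL8A (0.23) and RTL10 (1.07) were higher, none of them passing the test. RTL5 rose from 33.8, 37.6 and 28.0 to 97.2, 84.0 and 106 CPM, a log2 fold change of 1.53 (edgeR, adjusted p = 0.00436). PNMA8A had 0 counts in the 3 controls and 31, 14 and 19 counts with RG7112 (adjusted p = 0.00896), at least 7.42-fold higher against a floor of 3 counts per library. Only its treated samples brought it into the test. In H1792 1 of 5 tested was a downregulated DEG, beside 4.34% of all genes. This was LDOC1, which fell from 81, 158 and 31 counts to 6, 23 and 0 counts (adjusted p = 0.0223) and was brought into the test by its controls. The list's median log2 fold change was 0.65 in A549 and -1.30 in H1792, beside -0.01 and 0.01 for all genes. These medians rest on only 6 and 5 genes. For PNMA8A and LDOC1, entry into the test already implied the direction. The numbers of DEGs and the medians therefore do not show a move of the list against PEG10. PEG10 itself is not in these counts.

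Of 12 factors that keep or set imprints, all tested, 3 were downregulated DEGs in A549, beside 3.01% of all genes, and none was a DEG in H1792 (edgeR), where 14.6% of all genes were and 3 of the 12 had an adjusted p under 0.05. UHRF1, which brings DNMT1 to newly replicated DNA, fell by 2.90 on the log2 scale, HELLS, a chromatin remodeler, by 1.89, and DNMT1, the maintenance methyltransferase, by 1.40 (edgeR, adjusted p = 0.000326, 0.0153 and 0.0259). DNMT1 went from 123, 119 and 149 CPM with DMSO to 65.2, 30.3 and 50.8 CPM with RG7112. In H1792 the log2 fold changes of these 3 genes were 0.07, 0.15 and -0.21 (adjusted p of 0.454 or more), while TRIM28 (-0.97) and KDM1A (-0.40) were lower and DNMT3B (0.93) was higher by the test. The list's median was -0.56 in A549 and 0.07 in H1792. UHRF1, HELLS, DNMT1 and DNMT3B also passed the interaction test, all lower in A549 relative to H1792.

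From these same RNA-seq data the study reported lower PEG10 in A549 with RG7112, and E2F targets enriched among the genes downregulated there. Adding cited reports and blots of MMP9 and MMP12 protein in A549, it proposed that PEG10 acts through matrix metalloproteinases. The values here are of RNA and neither blotted gene was tested, so they do not bear on those blots. Of 13 measured MMP genes, 3 were tested in each cell line. MMP2, a gelatinase, was upregulated in A549 (1.34, edgeR, adjusted p = 0.0314) and MMP14, a membrane-bound collagenase, in H1792 (3.38, adjusted p = 0.00507), and there was no downregulated DEG. With 8, 11 and 7 counts with DMSO in H1792, MMP14 met the filter mainly through its treated samples. In H1792 MMP2 (-0.76, adjusted p = 0.00519) and MMP17 (-0.44, adjusted p = 0.0417) were lower by the test, below the fold change of a DEG. MMP9 had at most 10 counts in any sample and was not tested. MMP12 was matched to no gene of the counts, so it was not analysed here.

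The genes most like PEG10 were ranked by Pearson's r of log2 CPM, as a description. Samples of a group share their treatment, so r reflects the group means as well as replicates. Over the 12 samples the highest were CDCA5 (r = 0.949), the cohesin protector sororin, PFKFB3 (0.939), a glycolytic regulator, PTGES3 (0.937), KPNA4 (0.937), a nuclear import receptor, and SIM2 (0.924). Within the 6 A549 samples they were COA7 (1.00), SHMT1, PRMT7, AP3M2 and ODF2, the last at 0.991. Within the 6 H1792 samples they were KIF3C (0.999), USP6NL, WWC2, ATP13A3 and ARID1A (0.998). The 3 lists have no gene in common. Of the members, SGCE had r = 0.601 over 12 samples, and 7.39% of genes had a higher r. IGF2R had r = -0.80, with 99.3% of genes higher. Within H1792 r was 0.978 for PLAGL1, 0.938 for MEST and 0.495 for SGCE, with 2.11%, 8.88% and 37.8% of genes higher. Within A549 it was 0.825 for SGCE, 0.822 for MEST and 0.403 for PLAGL1, with 8.24%, 8.49% and 33.05% of genes higher.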

How the data were processed

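RNA-seq of 12 samples was analysed from a table of estimated counts per gene. The authors selected poly-A RNA, sequenced both ends of each fragment and estimated transcript abundance with kallisto 0.45.0 (submitters' processing notes) on Ensembl GRCh38, and deposited the sums per gene as whole-number estimated counts without normalization. The labels give a shorter read length than the paper's methods. The setting for strand is not given in the sources used here, so reads from PEG10 and SGCE in their overlap cannot be assigned with certainty, nor those of MEST, IGF2R, PLAGL1 and GNAS with their antisense partners. Samples were grouped by the cell line and treatment in the labels. The labels give RG7112 at 1 µM, whereas the names of the table's columns carry 0.1 µM. The paper mostly names A549 as the line with wild type p53, which was followed, and says the reverse where it introduces the RNA-seq.

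The samples of a cell line were filtered with filterByExpr (at least 10 counts, 15 in total), scaled by TMM and fitted with edgeR 4.0.16 (robust quasi-likelihood, R 4.3.3), with Benjamini-Hochberg adjustment over all genes tested. Differences between responses and between cell lines with DMSO came from a fit of all 12 samples. Intervals use the t distribution of the fit. For single genes an exact permutation test (two-sided) used log2(CPM + 1). Positions, lengths and GC content came from GENCODE v29, which held 18011 of the 20595 identifiers. Floors of counts cover counting error only.

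The members and gene lists were chosen with earlier results of these data known. Named were all members, the DEGs of each list (up to 4 by p), all tested neighbours, the 5 genes most like PEG10 in each set of samples, and of the MMP genes MMP9 and MMP12. IGF2R without single libraries, members of lists that passed without being DEGs, MMP2, MMP14, MMP17, CD68 and CASD1 were named after their values were seen. So were LDOC1, MOAP1, RTL8A and RTL10 in A549. Alternatives were DESeq2 1.42.0, limma-trend (limma 3.58.1), other scalings and filters, GC correction (loess, span 0.5), a replicate block, a joint fit, no fold change threshold, a pseudocount of 0.1 and leaving out samples. The procedure was tested on simulated data.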

Additional observations from a re-analysis of the deposited data

Results flagged for a closer look

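The responses of 3 of the 6 expressed members other than PEG10 differed between the cell lines by the interaction test, which 21.8% of all genes passed. For MEST the A549 log2 fold change minus that of H1792 was -1.17, for IGF2R it was 3.60 and for PLAGL1 it was -1.39. For PEG10 it was -4.10. Every treated A549 sample was below its controls and every treated H1792 sample above them, but PEG10 was selected on A549, so that this difference was not tested.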

How the results depend on the processing

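PEG10 had the same direction in each cell line under every alternative, which in A549 is a description, and SGCE did not pass the test in either under any. In A549 PEG10 ranged from -3.08 to -2.41 on the log2 scale without single samples. Leaving out PEG10, the number of DEGs among the members in A549 was 0, and 1, IGF2R, with DESeq2, with at least 10 counts in every sample, with limma-trend and without replicate 3 of both A549 groups. It was 0 to 1 without single samples. All DEGs of A549 numbered 665, and 310 to 526 without single samples. In H1792 they numbered 1450, then 3384 with no fold change threshold (4 members) and 920 to 1642 without single samples. Genes passing the interaction test went from 2539 to between 1584 and 2978 without single samples. DEGs between the cell lines with DMSO went from 4073 to 1938 with at least 10 counts in every sample. Among members other than PEG10 their number was 0, then 1 with library size only, 3 with no fold change threshold, 2 without replicate 3 of both A549 groups, and 0 to 2 without single samples. The cause was not tested.

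Samples sharing a replicate number did not deviate together in every pair (r of 0.0668 to 0.293 in A549 and of -0.039 to -0.00022 in H1792), so the numbers were not taken as pairs. In A549 replicate 3 of both groups deviated together (r = 0.293). It deviated away from replicates 1 and 2 of the other group (r of -0.232 to -0.140). Without replicate 3 of both groups IGF2R in A549 was 2.29 (edgeR, adjusted p = 0.00326), and with a replicate block 1.77 (adjusted p = 0.0551). With a replicate block A549 had 612 DEGs and H1792 had 995, and PEG10 in H1792 was 1.53 (adjusted p = 0.0387). With the replicate block and the GC correction together, H1792 had 521 DEGs and 0 members, PEG10 there was 1.26 (adjusted p = 0.0577), and 1619 genes passed the interaction test.

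Values of members with no call changed sign as follows. SGCE in H1792 was -0.41 with the GC correction and -0.41 with the block added, and -0.081 to 0.21 without single samples. Its difference between responses became 0.39 and 0.37, and its difference with DMSO -0.16 and -0.17, or -0.12 to 0.17 without single samples. GNAS with DMSO became -0.093 and -0.099, -0.034 without replicate 3 of both A549 groups, and -0.066 to 0.069 without single samples. In A549, without single samples, PLAGL1 ranged from -0.35 to 0.10 and GNAS from -0.042 to 0.25. Divided by length or not, PEG10 changed rank in 3 of 4 groups. At 2011916 to 6218825 counts per sample, PEG3, CASD1 and MMP9 could not be tested.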
